A study of Homo sapiens with 22 samples.

Results

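QKI5 crosslinking immunoprecipitation (CLIP) was compared between THP-1 cells that carried a lentivirus with a control hairpin and THP-1 cells that carried a lentivirus with a hairpin against QKI5. CLIP fixes proteins to the RNA they touch with ultraviolet light, pulls the protein down and sequences the attached RNA. THP-1 is a human monocytic leukaemia line that is widely used as a model of monocytes and of their differentiation to macrophages. Both conditions were precipitated with the same QKI5 antibody from Millipore, and each had 2 CLIP samples and 2 CLIP input samples. The series' design text speaks of untreated control cells, whereas the sample labels name the control hairpin, and the labels were followed. The deposited results are 1 peak list per condition, each made from both replicates together, so that no value below has a replicate error or a test. The comparison covers every peak of both lists, 7337 in control and 669 in knockdown, which together are 8006 of the 119823 peaks in the 6 lists of the series. Peaks were matched between the lists by position: sharing 1 bp or more, on 1 strand, made a peak an overlapping one. Read numbers are those the authors wrote into the peak names, and enrichments and p-values are also theirs. Adjoining or overlapping peaks of a list were also merged into sites, 5001 in control and 522 in knockdown.

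QKI is an RNA-binding protein of the STAR family, which binds short motifs built around the core ACUAA. It is known as a regulator of alternative splicing, of circular RNA formation and of mRNA stability, and QKI5 is its mainly nuclear isoform. In the monocyte lineage QKI is known for changing splicing as monocytes become macrophages. The QKI RNA itself carried 1 control peak, at chr6:163448330-163448369 on the plus strand with 9 reads, and none in knockdown. These lists contain no level of QKI5 protein or RNA, so the depth of the knockdown was not measured here. How many hairpins were used, and whether the cells were selected or cloned, is not given in the sources used here. Monocytic markers were looked up in the H3K4me3 list of the control cells. There 7 of 7 (CD14, CD33, LYZ, CD68, CSF1R, ITGAM and ITGAX) had a peak on or within 1 kb of the gene. In a wider list of monocyte and macrophage genes 17 of 24 had one. So did 4 of 14 T and NK cell genes, 4 of 9 B-cell genes, 3 of 11 erythroid and megakaryocyte genes, 7 of 14 neuron and glia genes and 5 of 13 genes of epithelium, fibroblasts and endothelium. Peaks also lay at 55 of 56 chromatin regulators and 86 of 88 ribosomal protein genes. The share over all genes was not computed, so these counts do not identify the cells. None of the 7 monocytic markers had a CLIP peak in control.

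The reference tables give sequence for few CLIP sites, and those that show what the lists held are printed here from RefSeq (GRCh38.p14), 5′ to 3′. The first is a site found in both conditions. It is assigned to the long non-coding RNA LINC01623 and lies at chr6:28863668-28863758 on the minus strand, in GRCh38 coordinates as the lists give them. It coincides with TRA-AGC2-2, a gene for alanine transfer RNA (tRNA). The whole run was covered in control, with 61 reads, and the capitals mark the 58 bases also covered in knockdown, with 17 reads.
LINC01623: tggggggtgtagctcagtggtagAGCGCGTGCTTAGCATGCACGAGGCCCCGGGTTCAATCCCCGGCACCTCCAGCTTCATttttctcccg

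The second set was found in control alone. A control site in DANCR, a long non-coding RNA that hosts small RNA genes, ran over chr4:52712618-52712746 on the plus strand with up to 142 reads. It covered 65 of the 66 bases of the MIR4449 hairpin, shown with the covered bases in capitals, and all 22 bases of the mature microRNA, shown with its seed (bases 2 to 8) in capitals. A control peak with 10 reads in MIR4453HG likewise covered all 89 bases of the MIR4453 hairpin, whose mature form has a different seed. In all, 4 of the 5001 control sites (0.0800%) and none of the 522 knockdown sites lay on a microRNA gene. At so low a share, their absence from the far shorter knockdown list is not read as a difference.
MIR4449 hairpin: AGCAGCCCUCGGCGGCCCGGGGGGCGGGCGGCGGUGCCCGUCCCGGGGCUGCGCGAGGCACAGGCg
hsa-miR-4449: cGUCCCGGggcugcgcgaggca
hsa-miR-4453: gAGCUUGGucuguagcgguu

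The third set shows control peaks at the very start of protein-coding genes, printed for at most 30 bases and in lower case throughout because nothing in them is singled out. H2AX, which encodes the histone variant that is phosphorylated at DNA breaks, had 57 reads in control, and its readable part spans chr11:119095416-119095440 on the minus strand. RBM19, which encodes a nucleolar RNA-binding protein, had 14 reads at chr12:113966301-113966323 on the minus strand. Neither gene start had a knockdown peak.
H2AX: gttctagtgtttgagccgtcgtgct
RBM19: ctcggtaaagatggcggcgccca

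RefSeq windows of 300 bases around gene starts (250 before and 50 after) were searched for ACTAA, the DNA spelling of the QKI core. Of the 89 windows touched by a control site, 2 held it on the gene's strand, 2.25% (exact 95% interval 0.273 to 7.88), against 12.03% of all 35116 windows. On the opposite strand it stood in 4.49% of the touched windows and in 11.9% of all windows. The touched windows were richer in G and C, with a median of 68% against 58.7%, and the part of base composition in this difference was not tested. No overlap with another motif was examined. Most of each window lies before the gene start, so it is mostly not sequence under a peak. In the window parts that lay under a site and were read, the core stood on neither strand. Many of those parts were only a few bases long. A match or its absence in these windows describes the letters only. Most CLIP sites lie deeper in genes, where no sequence was used here.

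Few sites were found in both lists, and those that were had many reads. Of control peaks, 145 overlapped a knockdown peak, 1.98% (exact 95% interval 1.67 to 2.32), and of knockdown peaks, 137 overlapped a control peak, 20.5% (17.5 to 23.7). These intervals, and all others below, cover counting error only, since adjoining peaks share reads. Among control peaks with 9 or fewer reads 0.155% overlapped (7 of 4524), and the share was 1.39% at 10 to 19 reads (35 of 2520), 21.7% at 20 to 49 reads (44 of 203) and 65.6% at 50 or more (59 of 90). Among knockdown peaks the same 4 shares were 5.83% (25 of 429), 26.9% (36 of 134), 62.1% (36 of 58) and 83.3% (40 of 48). The overlap lay in the upper end of both lists, and the many weakly supported peaks were in 1 list each. Median reads were 32 for overlapping and 9 for other peaks in control, and 23 and 7 in knockdown. With peaks of at least 10 reads alone the overlapping shares were 4.09% of control and 45.8% of knockdown peaks. Requiring 0.5 of each peak to overlap gave 1.31% and 14.5%. When the control list was shortened to the 669 peaks with the highest authors' −log10 p, 18.4% of them overlapped. The control peaks ranged from 3 to 4057 reads and the knockdown peaks from 6 to 239. The sequencing depth of the CLIP libraries is unknown, so a site missing from the knockdown list cannot be told apart from one that fell below the listing threshold.

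**Figure D1:**
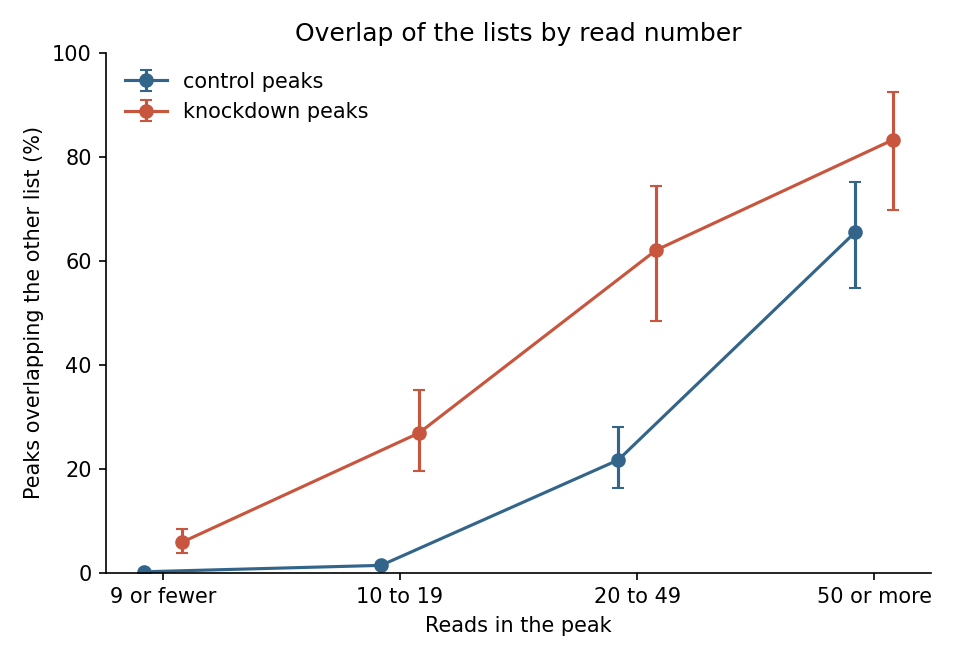
Share of peaks that overlap a peak of the other list (vertical axis, percent) by reads in the peak (horizontal axis), for the control and the knockdown list. Points are shares and bars are exact 95% binomial intervals, and both lines climb from under 6% at 9 or fewer reads to 65.6% and 83.3% at 50 or more.

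Merged into sites, the lists met at 80 places in 77 genes. Reads in control exceeded those in knockdown at 69 of them and fell short at 11, and the ratio of control to knockdown reads had a median of 1.49 (quartiles 1.15 and 1.92, range 0.113 to 20.8). Read numbers in the 2 lists ranked the 80 sites alike, with a Pearson r of 0.75 between log10 reads and a Spearman rho of 0.737. This is a description of sites that had to pass the listing threshold in both lists and that share their libraries. Read numbers were not adjusted for depth, which is unknown, so the ratios here and below do not measure a change in binding. The deposited log2 enrichments were scaled separately in each list. Linear enrichment divided by reads was most often 15.2 in control and 30.9 in knockdown, so at equal reads over 1 background read the listed log2 value is 1.02 higher in knockdown. That arithmetic was inferred from the numbers themselves (the divisor was whole within 0.01 at 98.9% of control and 95.1% of knockdown peaks). With that scaling included, the listed log2 value was higher in knockdown at 56 of the 80 sites, with a median difference of 0.583. Enrichments below are therefore given side by side and not read as a change.

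SOX2-OT, a long non-coding RNA gene around the pluripotency factor gene SOX2, had the most reads of any site in control. At chr3:181231735-181231843 on the plus strand it had 4057 reads in control and 195 in knockdown, a ratio of 20.8, with log2 enrichments of 7.16 and 4.56. The site had the same outer edges within 2 bp in both lists. Only PRMT8, which encodes an arginine methyltransferase, had a similar ratio among the 80 sites, with 226 reads in control and 11 in knockdown at chr12:3505882-3505908 (log2 enrichments 11.74 and 8.41). CARS2, for the mitochondrial cysteine tRNA synthetase, had 153 and 28 reads at a site of 25 bp. The opposite extreme was RADIL, a gene for an effector of the small GTPase Rap, with 13 reads in control and 115 in knockdown at chr7:4876863-4876884.

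Transfer RNA genes made up much of the rest of the top. Of the 80 sites, 16 overlapped a RefSeq tRNA gene, 9 at nuclear and 7 at mitochondrial ones, although the lists name other genes at the nuclear ones. The 7 include the MT-RNR2 site described below, which only meets a tRNA gene at its edge. The site at the start of LUC7L2, a gene for a U1-associated splicing factor, lies on the arginine tRNA gene TRR-CCT4-1 (chr7:139340711-139340776; the control list also names FMC1 there) and had 279 reads in control and 239 in knockdown. POLG-DT, a long non-coding RNA, had 341 and 168 reads on the arginine tRNA gene TRR-TCG1-1. B4GAT1-DT had 209 and 182 reads on the serine tRNA gene TRS-GCT3-1. KCTD2 had 132 and 116 reads on TRR-TCG3-1 and, at a second site, 20 and 12 reads on TRR-CCT1-1. Over the 9 nuclear tRNA sites the ratio of control to knockdown reads ran from 0.878 to 3.59, with more control reads at 8. The highest ratios were at LINC01623 (61 and 17 reads), AL021918.1 on TRS-TGA2-1 (103 and 47 reads) and POLG-DT. By amino acid, 4 were arginine, 2 serine, 2 alanine and 1 selenocysteine tRNA genes. Near-identical copies of tRNA genes make the exact locus uncertain.

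In mitochondrial RNA the site with most knockdown reads was at MT-RNR2, the large ribosomal RNA, at the edge of a leucine tRNA, with 162 reads in control and 236 in knockdown. The mitochondrial tRNA sites shared by both lists were MT-TF (40 and 25 reads), MT-TG (38 and 27), MT-TV (25 and 19), MT-TP (52 and 6), MT-TT (13 and 8) and MT-TY (8 and 7). The MT-TP site is the weakest of these in knockdown, where it spans 2 bp.

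Small nucleolar RNAs (snoRNAs), which guide chemical modification of ribosomal RNA and are mostly cut from introns of host genes, lay under 14 of the 80 sites. SNORD12B had 98 reads in control and 67 in knockdown. The RPSA gene, for a ribosomal protein, had 50 knockdown reads over SNORA6, where the control list names SNORA6 itself with 92 reads. At 5 of the 80 sites the 2 lists named different genes in this way, among them RPS13, a ribosomal protein gene listed in knockdown where the control list names SNORD14B. Counts by gene therefore miss a few places where the same RNA was found.

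Other shared sites lay on no small RNA gene of the types searched. NEAT1, the architectural RNA of nuclear paraspeckles, had 100 reads in control and 150 in knockdown at chr11:65429433-65429570. CDK6, a cell-cycle kinase gene, had 77 and 76 reads at chr7:92614646-92614762, at 0.958 of the gene's length from its start. JARID2, for a subunit of Polycomb repressive complex 2, had 22 and 15 reads at chr6:15263049-15263182. SMYD3, a lysine methyltransferase gene, had 15 and 8 at its shared site, and MFGE8, for a secreted protein that tags dying cells for uptake, had 23 and 13 reads at 1 site and 19 and 16 at another. NEAT1 also had 4 knockdown sites elsewhere, one of them with 55 reads, and 1 other control site. At each of the shared sites of these 5 genes the read numbers of the 2 lists were within 2 times of each other.

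**Figure D2:**
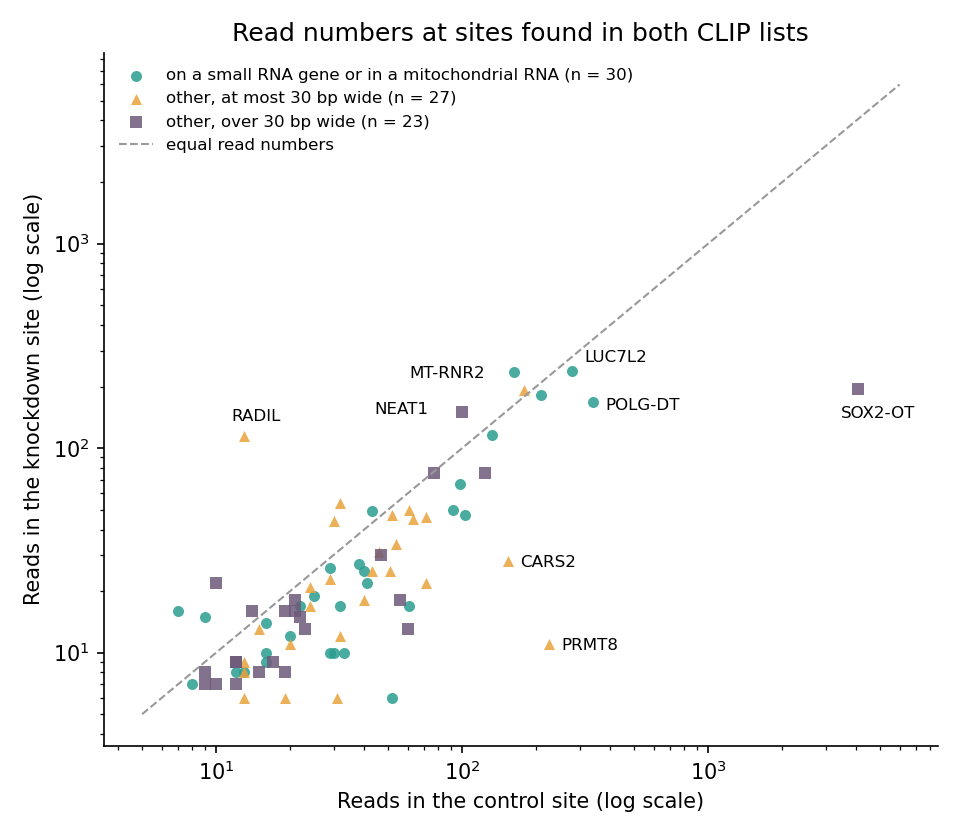
Reads in the control site (horizontal axis, log scale) and in the knockdown site (vertical axis, log scale) for the 80 sites found in both lists, with the dashed line at equal numbers. Marker shape and colour give 30 sites on a small RNA gene or in a mitochondrial RNA, 27 others at most 30 bp wide and 23 other wider sites, and SOX2-OT (4057 and 195 reads) and PRMT8 (226 and 11) lie farthest below the line.

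Shared sites were also narrower than the others. Median widths were 35 bp for shared and 79 bp for other sites in control, and 38 and 90 bp in knockdown. Of the 80 sites, 30 were at most 30 bp wide, with a median of 22 bp, and 27 of these lay on no small RNA gene of the types searched. At 25 of the 30, both edges agreed within 2 bp between the lists, against 9 of the 50 wider sites. Examples are AC037445.1 (chr17:63276965-63276984, 179 and 192 reads), LTBP3, for a protein that binds latent TGF-beta (52 and 47), ZNF536, a zinc finger gene (32 and 54), ME3, for a mitochondrial malic enzyme (43 and 25), SLC6A4, for the serotonin transporter (24 and 21), and EBF1, a B-cell transcription factor gene (13 and 8). LTBP3, ZNF536, ME3 and SLC6A4 were chosen after their values were seen. In control, sites of at most 30 bp made up 47.1% (36.1 to 58.2) of shared sites and 9.64% (8.83 to 10.5) of the others. In knockdown they made up 43.8% (32.7 to 55.3) and 7.69% (5.39 to 10.6). Among sites with 20 or more reads the shares were 46.4% (33.0 to 60.3) against 6.25% (2.74 to 11.9) in control. In knockdown they were 51.4% (34.0 to 68.6) against 15.8% (3.38 to 39.6), from only 35 and 19 sites.

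**Figure D3:**
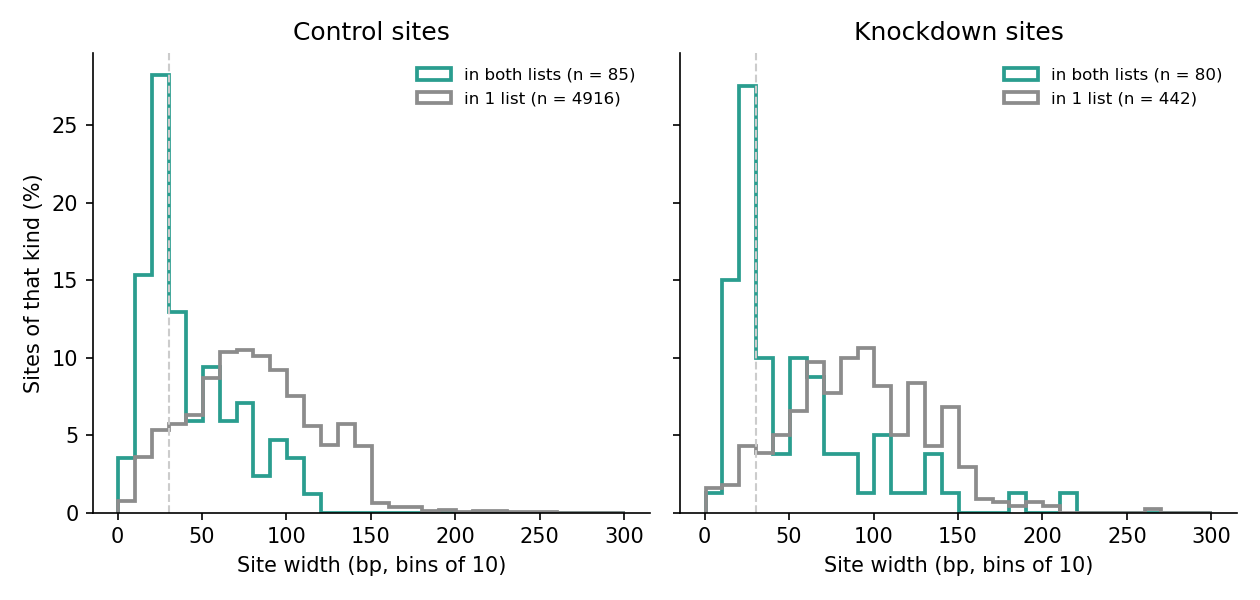
Width of merged sites (horizontal axis, bp in bins of 10) as percent of sites of each kind (vertical axis), for control on the left and knockdown on the right. Sites in both lists peak between 20 and 30 bp and sites in 1 list lie mostly between 50 and 150 bp. The dashed line marks 30 bp.

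Sites on RefSeq small RNA genes, matched without regard to strand because that table gives none, were 40% of shared control sites (34 of 85) and 0.386% of the others (19 of 4916). In knockdown they were 37.5% of shared sites (30 of 80) and 6.33% of the others (28 of 442). With peaks on small RNA genes, in mitochondrial RNAs and in sites of at most 30 bp left out, 0.437% (0.293 to 0.627) of the remaining control peaks overlapped a knockdown peak, in place of 1.98%. Of the remaining 495 knockdown peaks 5.86% (3.96 to 8.31) did, in place of 20.5%. That alternative was chosen after seeing the data. The small RNA genes searched did not include SCARNA9, for a small Cajal body RNA, or U6 pseudogenes. SCARNA9 had a shared site with 47 reads in control and 30 in knockdown, and RNU6-490P one with 20 and 11.

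Counted by gene, the lists had more in common than by position. Control peaks were assigned to 3366 gene identifiers and knockdown peaks to 475, of which 240 were in both, 50.5% (45.9 to 55.1) of the knockdown genes and 7.13% (6.28 to 8.05) of the control genes. Of the 20056 protein-coding genes in RefSeq, 2794 had a control peak (13.9%) and 368 a knockdown peak (1.83%). Both lists named 192 of them (0.957%), control alone 2602 (13.0%) and knockdown alone 176 (0.878%). Long genes were named more often: the share with a control peak rose from 3.94% of genes up to 10 kb to 29.97% of those from 100 to 300 kb, and with a knockdown peak from 0.543% to 4.104%. The median length was 113.6 kb for protein-coding genes in both lists, 64.8 kb for control alone and 48.1 kb for knockdown alone, against 24.1 kb for all protein-coding genes.

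In 165 of the 240 genes the peaks of the 2 lists did not overlap anywhere, and their nearest distance had a median of 16024 bp, with 17 genes within 1 kb and 99 beyond 10 kb. MIR3667HG, a long non-coding RNA listed as C22orf34, had 30 control and 7 knockdown peaks, the nearest 1844 bp apart. ANKRD11, which encodes a chromatin regulator that recruits histone deacetylases, had 23 and 2 peaks, 3508 bp apart. RUNX1, a master transcription factor of blood formation, had 10 control peaks and 1 knockdown peak, 11347 bp apart. MAD1L1, a spindle checkpoint gene, had 12 and 3 peaks, 34573 bp apart. EPIC1, CMIP, DLEU1 and MIR4435-2HG, the other genes of this kind with most peaks, had 9 to 12 control and 1 or 2 knockdown peaks, at 10089 to 66769 bp.

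The genes with most sites in control alone were AHNAK, a giant scaffold protein gene with 37 sites and up to 41 reads, CBFA2T3, for a corepressor of blood cell transcription with 24 sites and up to 37 reads, and PLEC, for the cytoskeletal linker plectin with 23 sites and up to 39 reads. LINC01606, TRAPPC9 and CHLSN (C7orf50 in the list) had 16 each. ZNF646 had 14 sites in a gene of 11.5 kb, which makes it the shortest of the protein-coding genes named here for many control sites. LINC01029 and PCGF3-AS1 had 11 sites, and DHRSX, AGAP1 and HDAC4, a class IIa histone deacetylase gene, had 10. The highest read number at any site in these last 9 genes was 31, at LINC01606, and no peak of theirs was listed in knockdown.

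Of all 475 genes with a knockdown peak, those also in control included, 441 had 1 knockdown site, and of all 3366 genes with a control peak 2489 had 1 control site. Knockdown alone named 235 genes. GAS5, a growth-arrest RNA that hosts snoRNAs, had 4 knockdown sites with up to 34 reads and none in control, and they lay on SNORD47, SNORD79, SNORD77 and SNORD75. TMEM107 had 139 reads in knockdown alone, in a peak of 4 bp on SNORD118, the U8 snoRNA. SNORA17A had 28 reads, SNORA13 19 and SNORA33 16, and SNORD20 had 2 sites of up to 11 reads. Off small RNA genes, KPNA4, for a nuclear import receptor, had 52 reads at chr3:160515136-160515238, LSM14A, for an mRNA decapping and P-body protein, 36 reads, ELOF1, for a transcription elongation factor, 33, and GGA2, for a Golgi sorting protein, 30. PABPC1L, for a poly(A)-binding protein, had 3 sites of up to 17 reads, GMPR and XRCC5 2 sites of up to 19 and 7 reads, and LINC01237 2 sites of 6 reads.

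The knockdown list held a larger share of small and mitochondrial RNAs. Protein-coding genes took 83.3% (82.5 to 84.2) of control peaks and 74.3% (70.8 to 77.6) of those in knockdown, whereas long non-coding RNA genes took 8.10% (7.48 to 8.74) and 10.8% (8.52 to 13.4). Mitochondrial RNAs took 0.477% (35 peaks) in control and 2.99% (20 peaks) in knockdown, and genes named as snoRNAs 0.191% (14 peaks) and 2.69% (18 peaks), with intervals that did not overlap for either. Peaks of 1 site are not independent, and the merged MT-RNR2 site alone held 9 of the 20 knockdown and 4 of the 35 control peaks. By site, mitochondrial RNAs held 7 of 80 shared and 2 of 442 other knockdown sites. In control they held 7 of 85 shared and 11 of 4916 other sites. There were 12.3 control peaks for each knockdown peak in protein-coding genes, 8.25 in long non-coding RNAs, 1.75 in mitochondrial RNAs and 0.778 in snoRNAs, against 10.97 over all peaks. Counted by position, 27 control and 38 knockdown sites lay on a snoRNA gene, 0.540% and 7.28% of sites, and 20 and 20 on a tRNA gene, of which 16 in each list were shared. When peaks on small RNA genes, in mitochondrial RNAs and in sites of at most 30 bp were left out, protein-coding genes took 84.2% of control and 82.4% (78.8 to 85.7) of knockdown peaks.

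**Figure D4:**
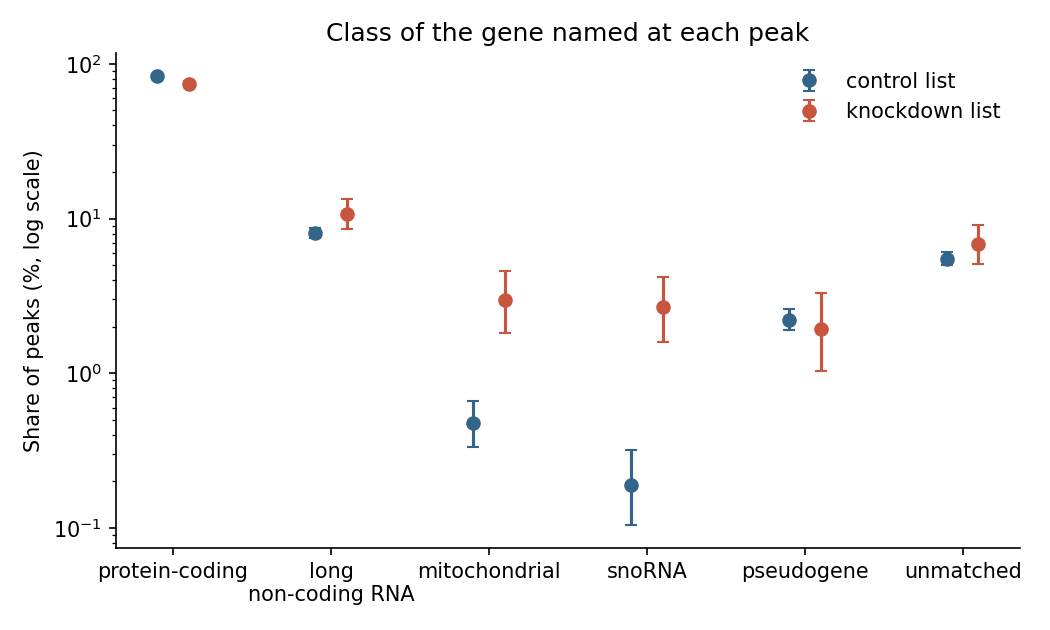
Share of peaks (vertical axis, percent on a log scale) whose named gene belongs to each class (horizontal axis), for the control and the knockdown list, with exact 95% binomial intervals. The knockdown list has 2.99% mitochondrial and 2.69% snoRNA peaks against 0.477% and 0.191% in control, and the intervals of the pseudogene and unmatched shares overlap.

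Most of the mitochondrial mRNAs with many reads were listed in control alone. MT-CO2, for a cytochrome c oxidase subunit, had 633 reads in control, MT-ND5, for a subunit of complex I, 255, MT-CO3 127 and MT-ATP6 116, and none of the 4 was listed in knockdown. MT-ND4 was listed in both, with up to 73 reads in control and 24 in knockdown, at places 973 bp apart. Among nuclear small RNAs, RNU6-9, a copy of the U6 spliceosomal RNA gene, had 105 reads in control alone. The U6 pseudogenes RNU6-39P, RNU6-36P, RNU6-16P and RNU6-5P, with 26, 25, 23 and 22 reads, were also in control alone, while RNU6-490P was in both with 20 and 11 reads. U6 copies are nearly identical, so which copy gave the reads is uncertain.

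Along protein-coding genes the median peak lay at 45.6% of the gene's length in control (95% interval 44.2 to 47.2, 5847 peaks with a position) and at 45.8% in knockdown (38.3 to 53.3, 483 peaks). With peaks of at least 10 reads alone the medians were 46.1% in control and 66.8% (40.4 to 73.4) in knockdown. Of 10 equal parts of gene length, the first held 14.6% (13.7 to 15.5) of control and 14.3% (11.3 to 17.7) of knockdown peaks, and the last 11.2% (10.4 to 11.99) and 13.7% (10.7 to 17.1). The part with fewest knockdown peaks was the fifth, with 6.004% (4.06 to 8.51), where control had 9.15% (8.42 to 9.92). Within 5 kb of the 3′ end lay 14.1% (13.2 to 15.05) of control and 19.7% (16.2 to 23.5) of knockdown peaks, and within 5 kb of the 5′ end 15.9% (15.01 to 16.9) and 18.6% (15.3 to 22.4). Within 1 kb of the 5′ end the order turned, with 5.52% (4.95 to 6.14) in control and 3.31% (1.91 to 5.32) in knockdown, while within 1 kb of the 3′ end the shares were 3.47% (3.02 to 3.97) and 5.38% (3.55 to 7.79). The median length of the genes under the peaks was 87.0 kb in control and 71.7 kb in knockdown, and the part of gene length in the 3′ difference was not tested. Exon, intron and untranslated region were not analysed here.

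Peaks near gene starts with most reads differed in name between the lists. In the first 1 kb, besides the tRNA site of LUC7L2, control had H2AX (57 reads), JUN and JUNB, AP-1 transcription factor genes (37 and 36), CBFA2T3 (34) and HMGB2, for a chromatin architectural protein (28). None of these 5 genes' peaks overlapped a knockdown peak. Knockdown had RPS3 on SNORD15A (20 reads), PABIR2 (19) and CRTAP, for a collagen-modifying protein (17). In the last 1 kb, control had HSPA1B, an inducible heat-shock gene with a near-identical neighbour copy (104 reads), MPO, for the granule enzyme myeloperoxidase (45), and JUN (40). Knockdown had TMEM107 (139 reads), ELOF1 (33) and PTP4A2, for a phosphatase (25), next to the shared RPL7A site. At the very 3′ end of PARN, for a poly(A) ribonuclease, both lists had a site, with 10 reads in control and 22 in knockdown. These genes of the first and last 1 kb were taken by read number, after their values were seen.

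**Figure D5:**
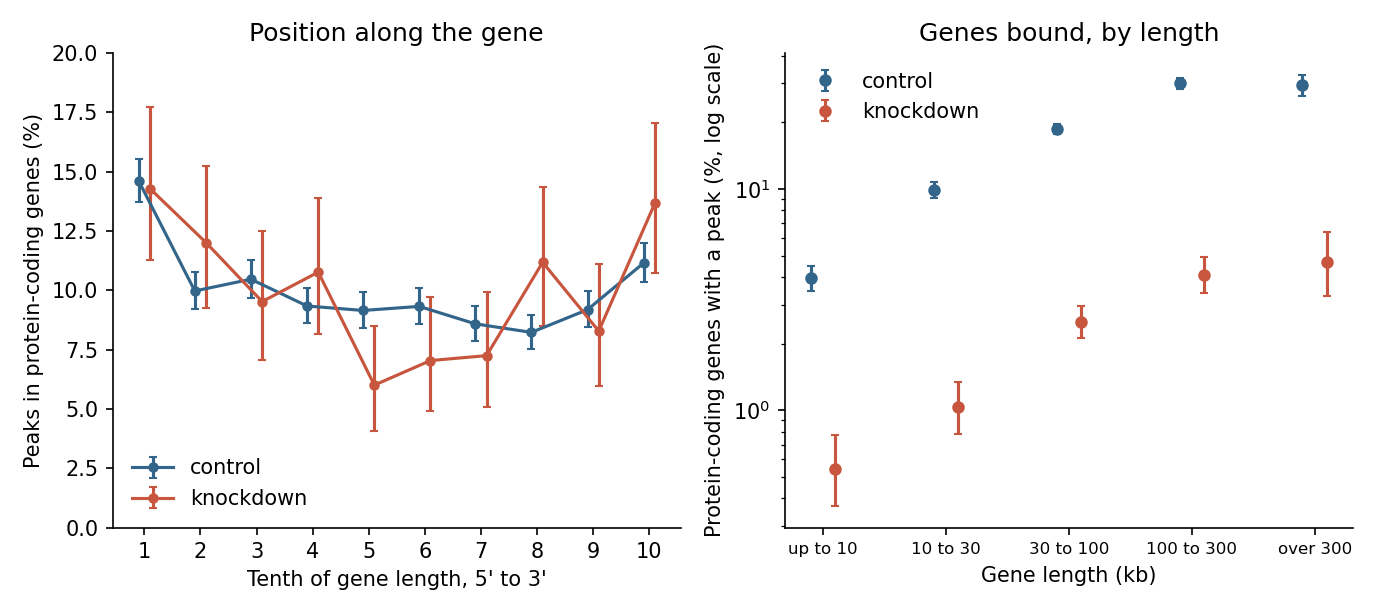
Left, share of peaks in protein-coding genes (vertical axis, percent) in each of 10 equal parts of gene length from 5′ to 3′ (horizontal axis). Right, share of all protein-coding genes with a peak (vertical axis, percent on a log scale) by gene length in kb (horizontal axis), with exact 95% binomial intervals in both panels, so that the first part holds 14.6% and 14.3% and the 100 to 300 kb class 29.97% and 4.104%.

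Lists of genes by function showed where the knockdown peaks fell, read against the 13.9% and 1.83% of all protein-coding genes named in control and knockdown. Among 22 genes known from other work as QKI targets in splicing or stability, 4 had a control peak and none a knockdown peak. These were MACF1, for a cytoskeletal crosslinker (6 sites, up to 18 reads), FOXO1, a transcription factor (3 sites, up to 10), MAP1B, a microtubule protein (2 sites, up to 14), and NUMB, a Notch regulator (1 site, 12). The share, 18.2% of the 22, is near the background, and the median length of the 22 is 76.7 kb. The 4 genes with a peak are longer, from 102.1 kb (MAP1B) to 403.0 kb (MACF1).

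Among 61 splicing regulators and factors, 17 had a control peak and 6 a knockdown peak. LUC7L2 was named for its tRNA site, described above. CELF2, a splicing regulator of muscle and blood, had 5 control sites and 1 knockdown peak of 8 reads 604 bp from the nearest of them. RBFOX2, which binds GCAUG, had 1 control site of 8 reads and a knockdown peak of 9 reads 85750 bp away. MBNL1, the muscleblind splicing factor, had a knockdown peak of 6 reads, and the ribonucleoprotein genes HNRNPL and HNRNPR of 7 reads each, all 3 with none in control. SON, for a nuclear speckle protein, had 3 sites of up to 17 reads and HNRNPH1 1 site of 11 reads, in control alone.

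Of 56 chromatin regulators, with a median length of 111.7 kb, 30 had a control peak and 5 a knockdown peak. JARID2, SMYD3 and ANKRD11 are described above. TRRAP, a scaffold of histone acetyltransferase complexes, had 2 control sites of up to 16 reads and a knockdown peak of 48 reads at chr7:98881731-98881790, 55906 bp from the nearest of them. ARID1B, of the SWI/SNF remodelling complex, had 1 knockdown peak of 6 reads and none in control. KDM4B, a histone demethylase gene, had 7 sites in control alone. Genes of 100 to 300 kb had a control peak in 29.97% of cases.

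Of 30 cytoskeletal linker and actin genes, with a median length of 189.5 kb, 16 had a control peak and 2 a knockdown peak. EPB41, for a membrane skeleton protein, had 3 control sites, and its knockdown site covered the same 26 bp as one of them, with 19 reads in control and 6 in knockdown. ACTB was named in knockdown alone with 6 reads, at a place outside the span RefSeq gives the gene. Of 29 myeloid transcription factors, 9 had a control peak, and of these RUNX1 alone had one in knockdown. STAT5B, which acts downstream of cytokine receptors, had 48 reads, and MYC 15, in control alone.

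Of 22 immediate early genes, which respond within minutes to stimuli and have a median length of 4.35 kb, 7 had a control peak and none a knockdown peak. JUN had 3 sites of up to 43 reads, ZFP36, for an mRNA decay factor, 2 of up to 19, and JUNB 1 of 36. Genes up to 10 kb had a control peak in 3.94% of cases. Of 21 heat-shock chaperone genes, 7 had a control peak and only HSPA8 a knockdown peak. HSPA8 hosts the SNORD14 snoRNAs, and its knockdown sites lay on SNORD14D (55 reads) and SNORD14E (17 reads), the latter shared with 22 control reads. DNAJB6 and HSF1, for the heat-shock transcription factor, had up to 11 and 9 reads in control alone.

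Of 27 host genes of small RNAs, 7 had a control and 6 a knockdown peak, and of 88 ribosomal protein genes 8 and 6. Over all 20056 protein-coding genes the corresponding counts were 2794 and 368, 13.9% and 1.83%. The 2 sets have median lengths of 4.97 and 5.09 kb. Protein-coding genes up to 10 kb had a control peak in 3.94% and a knockdown peak in 0.543% of cases. Some of the 27 hosts, such as GAS5 and DANCR, are non-coding, so these shares are no background for them. RPL7A had 2 shared sites, on SNORD36C (29 and 26 reads) and SNORD24 (33 and 10). RPSA had 249 control reads on SNORA62, 2651 bp from its knockdown site on SNORA6. NOP56, for a core snoRNP protein, had 41 and 22 reads on SNORD56. Each list had 1 further NOP56 peak, of 15 reads on no small RNA gene in control and of 9 reads on SNORD57 in knockdown. RPL13A had 12 knockdown reads, and SNHG16 had 6. TXNDC12 had 3 sites of up to 11 reads in control alone.

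Of 24 monocyte and macrophage genes, 2 had a control peak, MSR1, a scavenger receptor (10 reads), and S100A8, a calgranulin (7 reads), and none had a knockdown peak. The MSR1 site lay outside the span RefSeq gives the gene. Of 11 granule and progenitor genes MPO alone had peaks, at 4 control sites of up to 58 reads. Of 75 replication-dependent histone genes 2 had a control peak, H2BC5 (12 reads) and, outside the span RefSeq gives the gene, H2BC15 (10 reads). Markers of other lineages were rarely named: of 14 T and NK cell genes KLRD1 had a knockdown peak (6 reads), of 9 B-cell genes EBF1 had the narrow shared site, of 11 erythroid and megakaryocyte genes ALAS2 (13 reads) and of 14 neuron and glia genes GRIN1 (7 reads) had control peaks. Of 13 genes of epithelium, fibroblasts and endothelium KRT8 had control peaks, with up to 12 reads. CLIP peaks do not measure expression, so these counts show neither the presence nor the absence of those cells.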

How the data were processed

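The comparison used the 2 deposited CLIP peak lists, 1 for each condition. According to the series' design text, replicates were combined before peaks were listed. The H3K4me3 lists served only to check markers, and in those the deposited score is the same at every peak. The CLIP columns have no header and were read as the authors' −log10 p (at least 7.00) and the authors' log2 enrichment (at least 3.00), with the read number at the end of the peak name. GRCh38.p5 and HOMER are named in the submitters' processing notes without a step. Aligner, peak caller, use of the inputs and settings were not given in the sources used here. Gene classes, lengths and positions were taken from RefSeq (GRCh38.p14) by gene identifier and symbol, which matched 94.0% of control and 90.1% of knockdown peaks. Fewer, 88.5% and 87.0%, lay inside the span RefSeq gives the matched gene. Peaks outside that span were still counted under the gene the lists name. All 5500 control and 449 knockdown peaks whose gene has a known strand lay on it. Shares carry exact Clopper-Pearson 95% binomial intervals (scipy 1.17.1, pandas 2.3.3, Python 3.11.15). The code for overlapping and merging peaks was tested on simulated peaks, and the coverage of the binomial interval was computed without simulation. The p-value column of the authors was not used for any test, and none was possible with 1 list per condition.

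Genes were named by a rule: the 15 with most reads at shared sites, 8 in both lists without a shared site, 12 in each list alone with most sites, members of function lists with a knockdown peak and up to 3 others per list with most control reads, and 5 per non-coding class. Exceptions are stated. The comparison, the rule and the lists were chosen with earlier results of these data known.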

Additional observations from a re-analysis of the deposited data

How the results depend on the processing

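Each of the 8 values compared was recomputed under other settings, and 32 of 51 recomputed values stayed within the 95% interval of the reported one. Leaving out peaks on small RNA genes, in mitochondrial RNAs and in sites of at most 30 bp was chosen after seeing the data. It gave 0.437% of control and 5.86% of knockdown peaks overlapping, 13.4 control peaks for each knockdown peak, 44.36% of knockdown genes also in control, and 84.2% of control and 82.4% of knockdown peaks in protein-coding genes. Requiring 0.5 of each peak to overlap gave 1.31% of control and 14.5% of knockdown peaks. Merging into sites gave 15.3% of knockdown sites overlapping and 9.58 control sites for each knockdown site. Keeping peaks with at least 10 reads gave 4.09% and 45.8% overlapping, 60.8% of knockdown peaks in protein-coding genes and a knockdown median position of 66.8%. Keeping log2 enrichments of at least 5 gave 1.35% and 14.3% overlapping, 42.3% of knockdown genes also in control and 78.9% of knockdown peaks in protein-coding genes. Shortening the control list to the length of the knockdown list gave 18.4% of control peaks overlapping. The cause of these shifts was not tested. By construction, requiring 0.5 of each peak to overlap kept every peak but could only count fewer as overlapping. The other settings above kept fewer peaks or sites. No paired analysis was possible because each list combines both replicates, and for the same reason no replicate could be left out. The sequencing depth of the CLIP libraries is unknown, which limits what an unlisted site can show.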
